A study of Homo sapiens with 8 samples.

Results

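The genes described here are the ID (inhibitor of DNA binding) genes ID1, ID2, ID3 and ID4, the inhibitory SMAD genes SMAD6 and SMAD7, the ligand genes BMP2 and BMP4, and BAMBI, which encodes a pseudoreceptor. They were taken by symbol, and all 9 were found among the 25192 genes in each library. The set was selected on measured values of these libraries, since the fall of ID2 in both cell lines is part of its definition, so that fall is given below as a description with no test. mRNA was sequenced from 2 human colorectal cancer cell lines, HT29 and SW480, both of which carry a truncated APC protein. Each line was transfected for 36 h with a control siRNA, which the study's legends describe as specific to firefly luciferase, or with an siRNA against PRDX2, the gene of the antioxidant enzyme peroxiredoxin II (PrxII), with 2 libraries in each of the 4 groups. The question was which transcripts change when PrxII is depleted in APC-mutant cells. No source used here names which PrxII siRNA was sequenced, so all PrxII libraries are read as a single knockdown reagent per line.

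Bone morphogenetic proteins (BMPs) are secreted ligands that bind paired serine/threonine kinase receptors, which phosphorylate receptor SMADs. These join SMAD4 and enter the nucleus, where the ID genes are classical direct targets. SMAD6, SMAD7 and BAMBI are also induced by BMP or TGF-beta signals and dampen them, and BMP4 and BAMBI are known targets of Wnt/beta-catenin signalling in colorectal cancer cells. The study counts ID2 too among beta-catenin target genes and reports it as lower after PrxII depletion in both lines. ID proteins lack a DNA-binding region and hold E proteins and other basic helix-loop-helix factors off DNA, which in intestinal epithelium is linked to proliferation and delayed differentiation.

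The promoter sequences of ID1, ID2, ID3 and BAMBI are shown because ID2 defines the set, because ID1 and BAMBI each lay above ID2 in level in 1 line and below it in the other, and because ID3 is a low family member whose start region differs from theirs. Each holds the 250 bases before the RefSeq start site in GRCh38.p14, written 5′ to 3′ on the strand of the gene, at chr20:31605039-31605288 for ID1 (plus strand), chr2:8681806-8682055 for ID2 (plus), chr1:23559502-23559751 for ID3 (minus) and chr10:28677271-28677520 for BAMBI (plus). Capitals mark the letters of 6 short motifs on either strand: GGCGCC (GC-rich SMAD palindrome), CAGAC (SMAD-binding element), CTTTGA (TCF/LEF core), CACGTG (E-box), CCAAT (the element bound by NF-Y) and TATAAA (the core promoter element).
ID1: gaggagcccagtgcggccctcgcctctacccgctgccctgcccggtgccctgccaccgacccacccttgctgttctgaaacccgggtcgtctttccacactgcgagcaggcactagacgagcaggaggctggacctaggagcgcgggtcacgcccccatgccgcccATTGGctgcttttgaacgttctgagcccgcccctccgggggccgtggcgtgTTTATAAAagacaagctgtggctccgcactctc
ID2: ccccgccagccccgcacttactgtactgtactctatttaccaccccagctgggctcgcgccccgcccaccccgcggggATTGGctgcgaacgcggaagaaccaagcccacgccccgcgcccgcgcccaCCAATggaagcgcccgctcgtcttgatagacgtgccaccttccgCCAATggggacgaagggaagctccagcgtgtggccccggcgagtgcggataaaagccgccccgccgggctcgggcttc
ID3: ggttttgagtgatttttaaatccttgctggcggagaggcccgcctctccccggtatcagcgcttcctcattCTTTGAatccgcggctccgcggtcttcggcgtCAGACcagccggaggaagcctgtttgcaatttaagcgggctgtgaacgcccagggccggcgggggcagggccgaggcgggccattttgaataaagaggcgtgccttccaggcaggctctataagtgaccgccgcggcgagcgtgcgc
BAMBI: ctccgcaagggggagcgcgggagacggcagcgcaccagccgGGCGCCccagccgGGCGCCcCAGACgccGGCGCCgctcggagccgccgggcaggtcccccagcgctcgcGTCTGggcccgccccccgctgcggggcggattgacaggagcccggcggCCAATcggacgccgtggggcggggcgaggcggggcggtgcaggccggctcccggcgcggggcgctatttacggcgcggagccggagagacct

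The ID2 window held 3 CCAAT boxes and none of the other 5 motifs. The ID1 window held 1 CCAAT box and a pair of overlapping TATA matches, 1 on each strand, and ID1 and ID2 both lacked a match to either SMAD motif in these bases. The ID3 window held 1 SMAD-binding element and 1 TCF/LEF core. The BAMBI window, at 81.2% G and C, held 3 copies of GGCGCC, 2 of CAGAC and 1 CCAAT box. Over all 35116 RefSeq windows of this length, 16.4% held GGCGCC, 38.0% CAGAC, 11.2% CTTTGA, 6.34% CACGTG, 32.0% CCAAT and 10.7% TATAAA. The CCAAT and TATA motifs were added after the windows had been read. RefSeq entries were matched for 8 of the 9 genes, all but BMP2, and a match is a description of letters and not of binding.

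In the annotation of the authors' build (hg19, GRCh37) the genes lie at chr20:30193086-30194318 (ID1, plus strand), chr2:8818975-8824591 (ID2, plus), chr1:23884417-23885992 (ID3, minus), chr6:19837601-19842428 (ID4, plus), chr15:66994574-67075187 (SMAD6, plus), chr18:46446223-46477335 (SMAD7, minus), chr20:6748333-6760893 (BMP2, plus), chr14:54416454-54425479 (BMP4, minus) and chr10:28966439-28971861 (BAMBI, plus). An exon of ID2 overlaps the antisense lncRNA ID2-AS1 by up to 125 bases, and BMP4 overlaps a lncRNA of the opposite strand by up to 506 bases. The library kit does not mark strand, so reads from these overlaps cannot be assigned to a strand.

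Gene totals ran from 8857442 to 10164137 expected counts per library, so that 3 counts correspond to between 0.295 and 0.339 per 1000000 counts of a library. CPM values below are such counts scaled with TMM factors within a line. PRDX2 itself fell in both lines, from 148.1 and 153.8 CPM to 82.4 and 83.2 CPM in HT29 cells and from 209.1 and 246.1 CPM to 69.5 and 70.7 CPM in SW480 cells. Colonic epithelial markers were counted as present if at least 1 library of a line held 1 TPM (a transcript's share of the library, corrected for its length) or more. This held for 9 of 9 genes in HT29 cells and 8 of 9 in SW480 cells, where CDX1 stayed under that level. KRT20 was also low in SW480 cells, at 0.79 and 0.87 TPM in control and 0.95 and 1.34 TPM in PrxII siRNA libraries. The 8 markers of leukocytes, fibroblasts and endothelium summed to between 8.45 and 11.4 TPM in HT29 cells and between 12.6 and 15.4 TPM in SW480 cells. Of the leukocyte markers, PTPRC was at 0 in every library, but CD14 was at 6.9 to 9.22 TPM in HT29 cells and 2.94 to 5.72 TPM in SW480 cells. COL1A1, a fibroblast marker, was at 1.04 to 1.94 TPM in HT29 cells and 7.35 to 9.33 TPM in SW480 cells. By edgeR (quasi-likelihood fits, p adjusted by Benjamini-Hochberg over all genes tested), 2279 of 12961 genes changed in HT29 cells and 466 of 14112 in SW480 cells. Of these, 44.1% were higher in HT29 cells and 36.9% in SW480 cells, shares that became 69.3% and 59.3% with limma on log2(TPM + 1), and 50.3% in SW480 cells after a correction for GC content. The 2 SW480 control libraries stood apart from each other, with a chi-square per degree of freedom of 11.2 against 1.43 to 2.13 in the other pairs, and their ratio followed transcript GC content across 13196 genes (Spearman's rho 0.75, a description over genes that share the same libraries). For the genes of the set, results in SW480 cells are therefore given with each control library left out where that changed a call. For the further pathway genes in SW480 cells, only the number of calls is given in this way.

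BMP4 was the highest of them in both lines (the plot of TPM by library). In HT29 control libraries the order of mean TPM was BMP4 at 424, ID1 at 187, ID2 at 65.0, SMAD6 at 38.5, SMAD7 at 21.1, BMP2 at 7.16, BAMBI at 0.995, ID3 at 0.555 and ID4 at 0, and no neighbours in that order had overlapping library values. In SW480 control libraries it was BMP4 at 658, BAMBI at 219.8, ID2 at 144, SMAD7 at 16.9, ID1 at 15.9, BMP2 at 9.20, SMAD6 at 2.49, ID3 at 1.92 and ID4 at 0.03. There the libraries of SMAD7 (17.8 and 16.0 TPM) overlapped those of ID1 (15.7 and 16.1 TPM), and those of SMAD6 (2.09 and 2.88 TPM) overlapped those of ID3 (1.5 and 2.34 TPM). In PrxII siRNA libraries the order was the same in HT29 cells, and in SW480 cells ID3 and SMAD6 changed places.

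**Figure D1:**
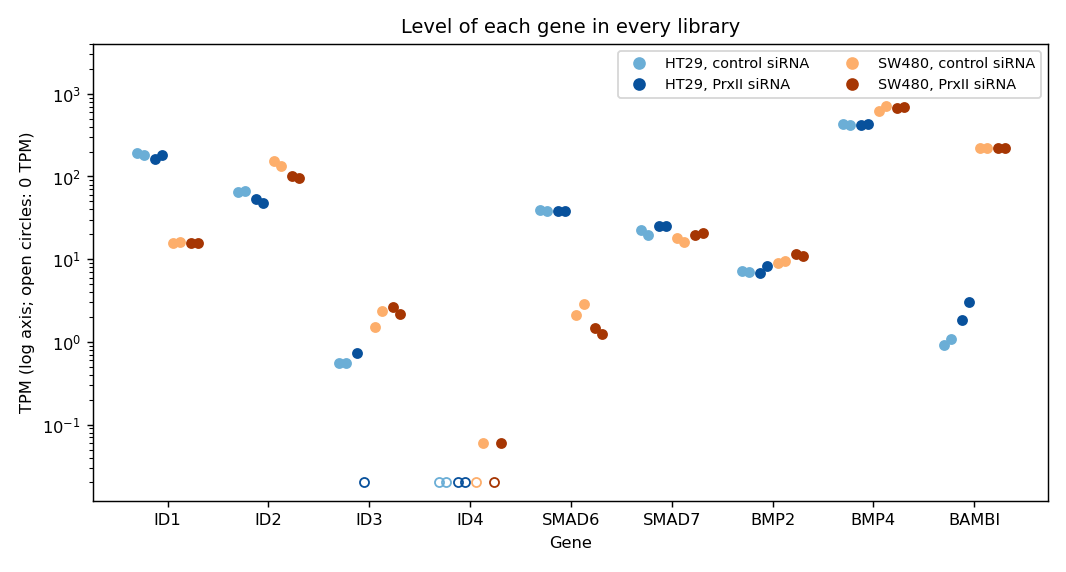
Level in TPM (log axis) of each gene in all 8 libraries, with 1 point per library, blue for HT29 and orange for SW480, light for control siRNA and dark for PrxII siRNA, and open circles at the bottom for libraries at 0 TPM. BAMBI lies between 0.92 and 3.08 TPM in HT29 cells and between 219.8 and 221.3 TPM in SW480 cells, and ID1 and SMAD6 are high in the opposite line.

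The first comparison asked how the 2 lines differ in these genes before PrxII is depleted. The selection did not rest on that difference. It did use the ID2 values of these control libraries, from which the fall of ID2 was measured. The comparison is therefore not independent of the selection. Of the 9 genes, 7 passed the count minimum over the 4 control libraries, and 6 of the 7 differed between SW480 and HT29 cells, 3 higher and 3 lower. These 6 include BAMBI, which reached the minimum only through the SW480 libraries where it was high. Over all genes tested, 67.5% differed, 35.7% being higher and 31.8% lower in SW480 cells. The median log2 difference was 0.23 over the 7 genes and 0.04 over all genes tested. The lines were grown in different media, McCoy's 5A for HT29 and RPMI1840 for SW480, so the line and its medium or handling cannot be told apart.

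The line difference was widest for BAMBI, whose product resembles a type I TGF-beta family receptor without the kinase domain. It had 7 and 8 counts in the HT29 control libraries (0.92 and 1.07 TPM) and 1451 and 1587 counts in those of SW480 (219.8 TPM in both). The groups did not overlap, and the log2 difference was 7.64 with a standard error (SE) of 0.18 (199.6-fold). BAMBI reached the count minimum only through the SW480 libraries and drops out of the fit without either of them. Its p under that minimum is therefore not read. With no minimum its log2 difference was 7.63 (edgeR adjusted p = 4.3e-08).

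Of the ID genes, ID1 and ID2 were ordered oppositely in the 2 lines. ID1 was at 191 and 184 TPM in HT29 control libraries and at 15.7 and 16.1 TPM in those of SW480. It was thus 13.0-fold lower in SW480 cells, with no overlap (log2 difference -3.70, SE 0.14, edgeR adjusted p = 1.4e-07). ID2 was at 64.2 and 65.9 TPM in HT29 cells and at 154.9 and 132.8 TPM in SW480 cells. Its log2 difference of 1.01 (SE 0.12, 2.02-fold, edgeR adjusted p = 0.00011) was in the other direction. The ratio of mean TPM was 2.88 for ID1 over ID2 in HT29 control cells and 9.06 for ID2 over ID1 in SW480 control cells. ID3 had 3 counts in each HT29 control library and 7 and 12 in those of SW480, under the minimum for the test. ID4 had 0 counts in all 4 HT29 libraries, which allows up to 3 counts per library, and 0, 1, 0 and 1 counts in the 4 SW480 libraries.

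SMAD6, which acts mainly on BMP receptor signals, was at 39.0 and 37.9 TPM in HT29 control libraries and at 2.09 and 2.88 TPM in SW480, where it rested on 11 and 17 counts. It was 24.9-fold lower in SW480 cells by counts (log2 difference -4.64, SE 0.21, edgeR adjusted p = 3.6e-07). SMAD7, which acts on TGF-beta as well as BMP receptors, was at 22.8 and 19.5 TPM in HT29 and 17.8 and 16.0 TPM in SW480 cells. Its groups did not overlap either, but the difference was small (log2 difference -0.47, SE 0.15, edgeR adjusted p = 0.019), and it was not called by DESeq2 (adjusted p = 0.068) or by limma on log2(TPM + 1) (adjusted p = 0.10). SMAD6 thus stood at 1.82 times the mean TPM of SMAD7 in HT29 cells, and SMAD7 at 6.81 times that of SMAD6 in SW480 cells.

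BMP4 was at 426 and 422 TPM in HT29 control libraries and at 611 and 705 TPM in those of SW480 (log2 difference 0.51, SE 0.10, edgeR adjusted p = 0.0024). That call was lost without either HT29 control library (adjusted p = 0.084 and 0.089). BMP2, a close relative of BMP4, was at 7.28 and 7.04 TPM in HT29 and 8.98 and 9.41 TPM in SW480 cells, and its log2 difference of 0.23 (SE 0.18, edgeR adjusted p = 0.27) did not pass the test. BMP4 exceeded BMP2 by 59.2-fold in mean TPM in HT29 control cells and by 71.5-fold in SW480 control cells.

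With the PrxII siRNA libraries in place of the control libraries, an alternative added after the data were seen, the 6 genes kept their directions and passed the test. BAMBI then had a log2 difference of 6.35, SMAD6 of -5.12, ID1 of -3.55 and ID2 of 0.81. BMP2 (0.42, edgeR adjusted p = 0.010) passed as well. ID3, at 4 and 0 counts in HT29 and 13 and 11 in SW480 cells, entered that fit only through the SW480 libraries where it was high, so its p is not read.

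The second comparison asked what PrxII depletion did in each line. ID2, whose fall defined the set, was at 39.4 and 40.5 CPM in HT29 control libraries and at 31.1 and 28.1 CPM after PrxII siRNA. In SW480 cells it was at 92.6 and 80.3 CPM in control libraries and at 56.6 and 54.1 CPM after PrxII siRNA. The 2 groups did not overlap in either line. In bulk RNA, less transcript per cell and fewer cells that express the gene cannot be told apart. The log2 fold change was -0.43 (SE 0.08, 1.35-fold lower) in HT29 and -0.64 (SE 0.12, 1.56-fold lower) in SW480 cells. Over all alternatives it stayed negative, between -0.51 and -0.36 in HT29 and between -0.75 and -0.49 in SW480 cells. The value nearest to 0 in SW480 cells came with the GC correction, and without control library 1 or 2 it was -0.54 or -0.75. In PrxII-depleted SW480 cells ID2 was still at 100.1 and 95.5 TPM, above the 64.2 and 65.9 TPM of HT29 control cells.

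**Figure D2:**
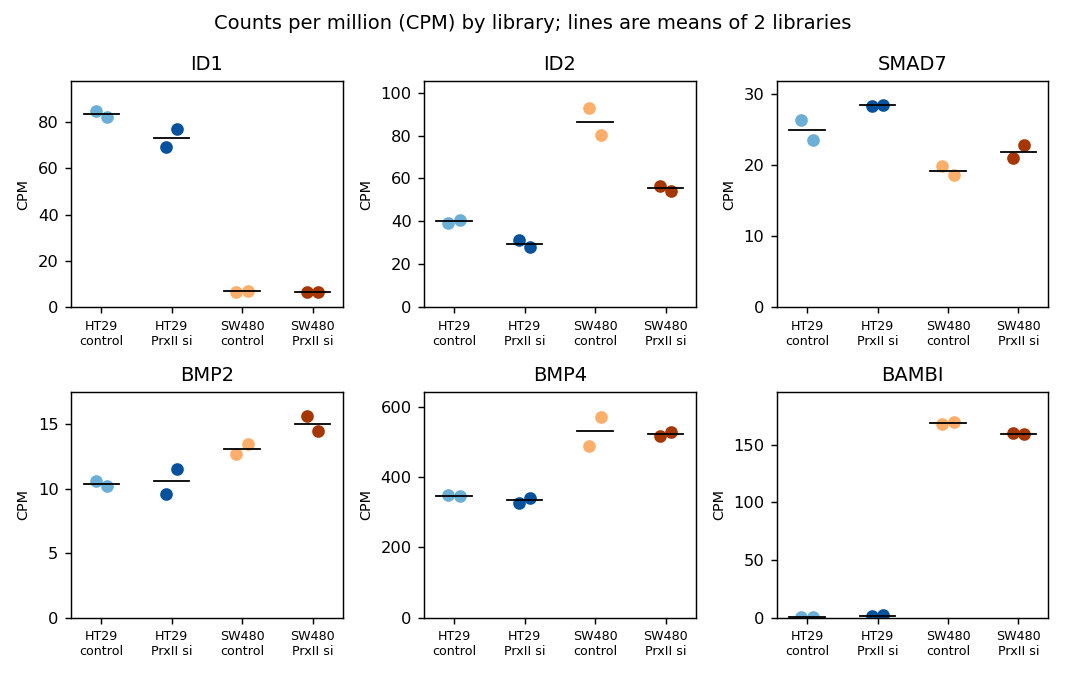
CPM of ID1, ID2, SMAD7, BMP2, BMP4 and BAMBI in each library (points) with the mean of the 2 libraries of a group (line), each axis starting at 0. ID2 falls from 39.9 to 29.6 CPM on average in HT29 cells and from 86.5 to 55.4 CPM in SW480 cells. Each gene shown, ID2 included, shifts by less than the distance between the control means of the lines, though CPM is scaled within each line.

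Of the 6 other genes that could be tested in HT29 cells, 1 changed. The background was 17.6% of all genes tested, so 1 of 6 was close to it. The gene was ID1, which passed in the lower direction, in which 9.82% of all genes passed, against 7.76% in the higher one. It was at 85.1 and 82.1 CPM in control libraries and at 69.4 and 77.0 CPM after PrxII siRNA. The groups did not overlap, and the log2 fold change was -0.19 (SE 0.06, 1.14-fold lower, edgeR adjusted p = 0.029). The call was not made by DESeq2, at a log2 fold change of -0.19 (adjusted p = 0.26), or by limma on log2(TPM + 1), at -0.13 (adjusted p = 0.15). It was also lost without control library 1, at -0.17 (edgeR adjusted p = 0.092), and without PrxII siRNA library 1, at -0.12 (edgeR adjusted p = 0.30), and leaving out 1 library at a time the value ran from -0.27 to -0.12.

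BAMBI in HT29 cells had 7 and 8 counts in control libraries and 14 and 22 counts after PrxII siRNA, or 0.72 and 0.83 CPM against 1.37 and 2.31 CPM. It passed the count minimum only through the PrxII siRNA libraries. The groups did not overlap, and the log2 fold change was 1.22 with an SE of 0.44. Since the count minimum used the group where it was high, its p under that minimum is not read here. With no count minimum it missed the threshold (edgeR adjusted p = 0.071). Even the higher of these libraries, at 3.08 TPM, was far under the 219.8 TPM of SW480 control cells.

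SMAD7 was at 26.3 and 23.5 CPM in HT29 control libraries and at 28.3 and 28.4 CPM after PrxII siRNA (log2 fold change 0.19, SE 0.09, edgeR adjusted p = 0.17). SMAD6 was at 36.8 and 36.1 CPM against 35.1 and 39.0 CPM (log2 fold change 0.02, SE 0.08, edgeR adjusted p = 0.89). The SMAD7 groups did not overlap and those of SMAD6 did, and neither passed the test. BMP4 was at 348.7 and 346.4 CPM against 327.2 and 341.5 CPM (log2 fold change -0.06, SE 0.03, edgeR adjusted p = 0.26). BMP2 was at 10.6 and 10.2 CPM against 9.56 and 11.6 CPM (log2 fold change 0.02, SE 0.15, edgeR adjusted p = 0.95). BMP4 is the most precisely measured gene of the set in HT29 cells, and its 4 libraries lay within a narrow range. ID3, with 3 and 3 counts against 4 and 0, and ID4, with none, could not be tested.

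In SW480 cells 0 of the 7 other genes tested changed by edgeR, beside 3.30% of all genes (1.22% higher and 2.08% lower). At an unadjusted p under 0.05 the count was 0 of 7 by edgeR, 0 by DESeq2 and 1 by limma on log2(TPM + 1), and neither called any of them after adjustment, DESeq2 giving an adjusted p for 4 of them. The median log2 fold change over these 7 genes was -0.02, against 0.0022 over all genes tested, and that over the 6 genes in HT29 cells was 0.02, against -0.00048.

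ID1 in SW480 cells was at 6.70 and 7.05 CPM in control libraries and at 6.58 and 6.67 CPM after PrxII siRNA (log2 fold change -0.05, SE 0.19, edgeR adjusted p = 0.89). ID3, on 7 and 12 against 13 and 11 counts, had a log2 fold change of 0.21 with an SE of 0.44 (edgeR adjusted p = 0.79), so only a large change could have been detected at this depth. ID4 could not be tested. ID1 and ID3 thus moved by less than their SE.

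BAMBI, at 167.7 and 169.5 CPM in SW480 control libraries and 159.5 CPM in both PrxII siRNA libraries, had a log2 fold change of -0.08 (SE 0.10, edgeR adjusted p = 0.65). The groups did not overlap, but the difference was under its SE. SMAD7 was at 19.8 and 18.6 CPM against 21.0 and 22.7 CPM (log2 fold change 0.19, SE 0.15, edgeR adjusted p = 0.46), and SMAD6, on 11 and 17 against 12 and 10 counts, had a log2 fold change of -0.46 (SE 0.40, edgeR adjusted p = 0.50). In CPM neither pair of groups overlapped, while the counts of SMAD6 did. The value of SMAD6 moved to -0.69 without control library 1, to -0.19 without control library 2 and to -0.84 with the GC correction, and it passed the test in none of these.

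BMP2 was at 12.7 and 13.5 CPM in SW480 control libraries and at 15.6 and 14.5 CPM after PrxII siRNA (log2 fold change 0.20, SE 0.17, edgeR adjusted p = 0.48), with no overlap. BMP4 was at 488.4 and 572.1 CPM in control libraries and at 516.4 and 527.9 CPM after PrxII siRNA, so that both PrxII siRNA libraries lay between the control libraries (log2 fold change -0.02, SE 0.10, edgeR adjusted p = 0.91). Its direction depended on the control library kept. The log2 fold change was -0.13 without control library 1 and 0.09 without control library 2. In those fits a single control library is assumed to vary like the PrxII siRNA pair, and 3437 and 7364 genes were called in all, so their p-values are not read as calls.

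**Figure D3:**
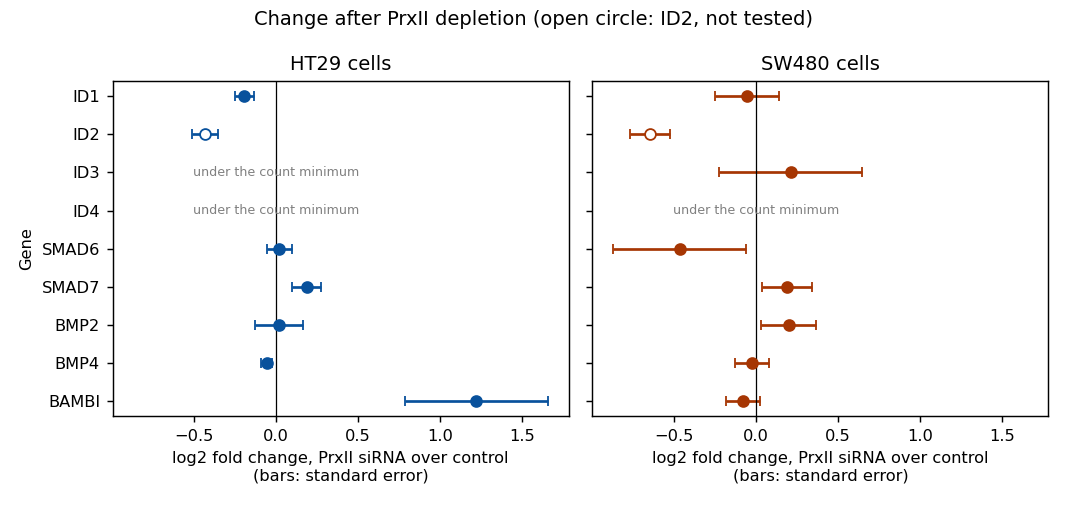
Log2 fold change (PrxII siRNA over control, horizontal axis) of each gene in HT29 (left) and SW480 cells (right), with bars for the standard error from edgeR and an open circle for ID2, which was not tested. ID2 lies at -0.43 and -0.64, ID1 in HT29 cells at -0.19, and BAMBI in HT29 cells at 1.22 with a wide error.

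The third comparison tested whether the change after PrxII depletion differed between the lines, as an interaction over all 8 libraries. By edgeR 0 of the 7 other genes tested differed, beside 1.12% of all genes. At an unadjusted p under 0.05 the count was 1 of 7 by edgeR, 1 by DESeq2 and 2 by limma on log2(TPM + 1). Neither DESeq2 nor limma called any after adjustment, DESeq2 giving an adjusted p for 3 of them. The widest difference was that of BAMBI, whose log2 change was higher by 1.30 in HT29 than in SW480 cells (SE 0.36, edgeR adjusted p = 0.11). Without 1 library at a time the value ran from 0.89 to 1.64 and the adjusted p from 0.015 to 0.44. It passed only without SW480 control library 1 or 2 and with the GC correction, fits that called 1371, 5237 and 1008 genes in all against 166. The change of ID1 differed by -0.14 (SE 0.18, edgeR adjusted p = 0.72), so the call of ID1 in HT29 cells alone is not shown to be a difference between the lines. For BMP4 the difference was -0.03 (SE 0.11, edgeR adjusted p = 0.92). The BMP4 value was 0.08 without SW480 control library 1 and -0.16 without library 2. For ID2, as a description, the difference was 0.21 (SE 0.14). With the GC correction it was 0.021, and over all alternatives it ran from 0.021 to 0.30.

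**Figure D4:**
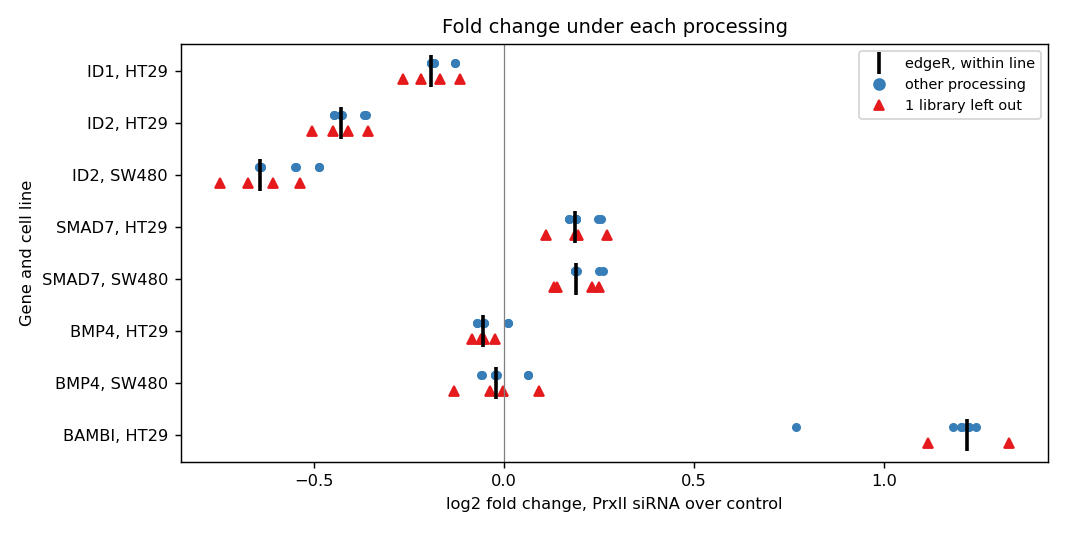
Log2 fold change (PrxII siRNA over control) of 8 gene and line pairs under each way of processing, with a black bar for edgeR within the line, blue circles for other processing and red triangles for fits with 1 library left out. ID2 stays left of 0 throughout, between -0.75 and -0.36 over both lines, while BMP4 in SW480 cells runs from -0.13 to 0.09.

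Over the 8 libraries, the genes with the pattern most like that of ID2 were ARNTL2, TMX1, ERCC6L, MSMO1 and ARL2BP, taken from 11806 genes by the root mean square difference of log2 CPM centred on the mean of each gene. That difference was 0.065 for ARNTL2, 0.091 for TMX1, 0.095 for ERCC6L, 0.097 for MSMO1 and 0.10 for ARL2BP. These CPM values were scaled over all 8 libraries together, where ID2 was at 40.7 and 41.8 CPM in HT29 control, 32.2 and 29.0 CPM in HT29 PrxII siRNA, 89.5 and 77.6 CPM in SW480 control and 54.8 and 52.3 CPM in SW480 PrxII siRNA libraries. ARNTL2, on the same scale at 94.6 and 100.8 CPM in HT29 control and 76.4 and 75.5 CPM in HT29 PrxII siRNA libraries, and at 230.2 and 183.7 CPM in SW480 control and 134.7 and 137.8 CPM in SW480 PrxII siRNA libraries, was thus lower after PrxII siRNA and higher in SW480 cells, as ID2 was. These genes were chosen for the likeness, which is a description.

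The rest of the pathway was read from a list of 107 genes with 8 roles, of which 65 could be tested in HT29 and 80 in SW480 cells. In HT29 cells 12 of 65 changed (18.5%, close to the 17.6% of all genes), 7 higher and 5 lower. The median log2 fold change was 0.0048. The HT29 count was 6 with DESeq2, 7 with limma on log2(TPM + 1) and 1 with all libraries fitted together. In SW480 cells 7 of 80 changed (8.75%, beside 3.30% of all genes), 2 higher and 5 lower, with a median of -0.03. With DESeq2 it was 8 genes, with limma on log2(TPM + 1) 2 and with all libraries fitted together 22. The SW480 count fell to 1 without either PrxII siRNA library and rose to 31 and 39 without control library 1 and 2. Among the further BMP and GDF ligand genes, edgeR called 0 of 4 in HT29 and 0 of 6 in SW480 cells (0 and 2 at an unadjusted p under 0.05), and neither DESeq2 nor limma on log2(TPM + 1) called any. Among the receptor SMAD and SMAD4 genes, edgeR called 0 of 5 and 0 of 6 (2 and 1 at an unadjusted p under 0.05), DESeq2 called 0 in each line, and limma on log2(TPM + 1) called 1 in HT29 and 0 in SW480 cells.

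The genes of the list named below were called by edgeR, and not all of these calls were made by the other tools. Among ligands and antagonists, TGFB3, a TGF-beta ligand, was at 1.13 and 1.77 CPM in HT29 control libraries and at 3.71 and 2.52 CPM after PrxII siRNA (log2 fold change 1.11, SE 0.34, edgeR adjusted p = 0.030). SOSTDC1, a secreted antagonist of BMPs, fell in HT29 cells from 30.9 and 26.2 CPM to 15.1 and 17.7 CPM (log2 fold change -0.80, SE 0.11, edgeR adjusted p = 6.2e-05). In SW480 cells it was at 2.77 and 3.63 CPM against 2.57 and 1.42 CPM and did not pass. GREM1, which encodes gremlin and traps BMP2 and BMP4, had 0 counts in all HT29 libraries and fell in SW480 cells from 121 and 141 counts to 63 and 68 counts (log2 fold change -1.12, SE 0.18, edgeR adjusted p = 0.017). NBL1, another BMP antagonist of the same family, rose in SW480 cells from 53.1 and 62.1 CPM to 85.7 and 83.6 CPM (log2 fold change 0.55, SE 0.12, edgeR adjusted p = 0.047).

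Among receptors, the activin receptor gene ACVR1B (log2 fold change 0.24, SE 0.06) and NEO1, a repulsive guidance molecule receptor that takes part in BMP signalling (0.30, SE 0.06), rose in HT29 cells by edgeR. Of the regulators of SMADs, the ubiquitin ligase genes SMURF1 (0.16) and NEDD4L (0.22) and the kinase gene HIPK2 (0.32) rose in HT29 cells by edgeR. CTDSPL, which encodes a phosphatase, fell by 0.20 in HT29 and by 0.44 in SW480 cells on the log2 scale (edgeR adjusted p = 0.0046 and 0.048). It was the only gene of this list called by edgeR in both lines, and its SW480 value was close to the threshold. SMURF2, the paralog of SMURF1, fell in SW480 cells from 141.6 and 121.1 CPM to 85.8 and 78.3 CPM (log2 fold change -0.68, SE 0.12, edgeR adjusted p = 0.025).

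Among other readouts, MSX1, a homeobox gene that BMPs induce in many tissues, fell in SW480 cells from 203.0 and 222.2 CPM to 80.3 and 79.3 CPM (log2 fold change -1.41, SE 0.11, edgeR adjusted p = 0.00077). In HT29 cells it had between 2 and 4 counts per library. LTBP2 also fell in SW480 cells (log2 fold change -0.85). In HT29 cells, on 19 and 22 against 9 and 11 counts, its log2 fold change was -1.06 and did not pass (edgeR adjusted p = 0.060). In HT29 cells GATA2, PMEPA1 and TGFBI fell by 0.22, 0.18 and 0.17 on the log2 scale. In SW480 cells their log2 fold changes were 0.29, 0.23 and -0.03, and none passed. Their differences between the lines did not pass by edgeR either (adjusted p = 0.063, 0.073 and 0.53). Of the E proteins and related partners that ID proteins bind, TCF12 (HEB) rose in HT29 cells (0.14, SE 0.04, edgeR adjusted p = 0.035) out of 3 tested, a call that DESeq2 did not make. In SW480 cells edgeR called 0 of 4, with 0 at an unadjusted p under 0.05, and DESeq2 and limma on log2(TPM + 1) also called 0.

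**Figure D5:**
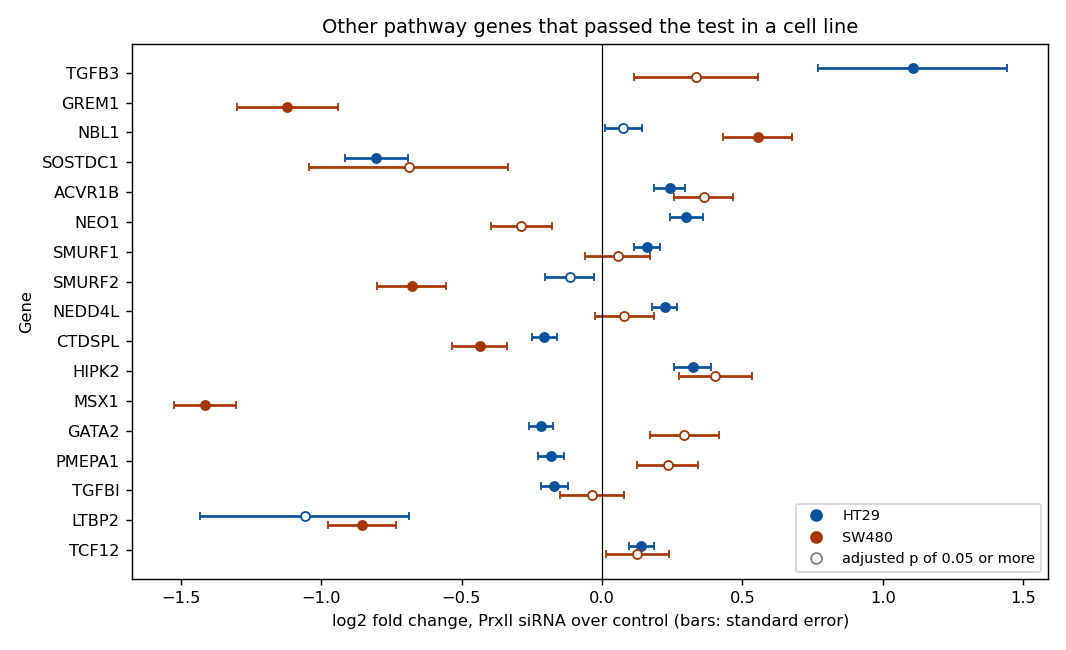
Log2 fold change (PrxII siRNA over control, bars for the standard error) of named pathway genes that passed the edgeR test in at least 1 line, blue for HT29 and red-brown for SW480, filled where the adjusted p was under 0.05. MSX1 and GREM1 in SW480 cells lie at -1.41 and -1.12 and have no HT29 value because their counts there were under the minimum.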

How the data were processed

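Libraries were prepared with a TruSeq v2 mRNA kit, which does not mark strand. Per the study's methods, which describe the HT29 libraries, the authors aligned paired reads to hg19 with MapSplice and estimated abundance for refGene transcripts with RSEM. The same file layout was deposited for SW480 cells. Each deposited gene table holds RSEM expected counts, TPM, FPKM and 2 lengths per gene, the lengths being averages weighted by isoform abundance. The deposited FPKM values were not used. The authors' submission notes also name FastQC and DESeq2.

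Expected counts, of which 2.93% to 3.54% per library are not whole, were rounded. Genes that reached 10 counts in 2 or more libraries of a fit entered edgeR 4.0.16 (R 4.3.3, TMM, glmQLFit and glmQLFTest) within each line, across the control libraries of both lines, and over all 8 libraries for the interaction, at a Benjamini-Hochberg adjusted p under 0.05. SE is the absolute log2 fold change divided by the square root of F. TPM served to compare levels between genes. The scripts were tested on simulated data. Alternatives were RLE scaling, no count minimum, DESeq2 1.42.0, log2 TPM values in limma 3.58.1 with a pseudocount of 1 or 0.1 (genes of at least 1 TPM), all libraries together, the replicate number as a block, a loess correction for GC content (span 0.5, transcript GC known for 96.5% to 97.0% of the genes tested) and leaving out each library.

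The genes and lists were chosen with earlier results of these data known. Named genes are the 9 genes, PRDX2, listed pathway genes with an adjusted p under 0.05 in a line (1 of them is counted but not reported here), and the 5 genes most like ID2 among those with a mean of at least 5 CPM. The sample titles number the libraries of a group as replicates, and a legend of the study speaks of duplicate experiments for HT29 cells. Nothing further was found on how they were made. The p-values therefore measure the spread between these libraries, which may be technical. Limits from counts of 3 cover counting error only. Promoter sequences and motif shares come from RefSeq (GRCh38.p14), gene positions from GENCODE on GRCh37.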

Additional observations from a re-analysis of the deposited data

Results flagged for a closer look

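The difference between the lines was tested for PRDX2 and the pathway list as for the genes above, and passed for PRDX2 and NEO1. The siRNA target PRDX2 fell less in HT29 than in SW480 cells, with log2 fold changes of -0.87 and -1.70 and a difference of 0.84 (SE 0.12, edgeR adjusted p = 0.013), so the depth of the knockdown went with the line. That call was lost without any 1 of the HT29 libraries or either SW480 PrxII siRNA library (adjusted p from 0.12 to 0.16), with the difference still between 0.81 and 0.86. The part of that difference in the changes of ID2 was not tested. NEO1 rose in HT29 cells from 53.7 and 56.6 CPM to 67.7 and 68.0 CPM, and in SW480 cells it was at 104.6 and 100.4 CPM against 80.9 and 87.1 CPM, with log2 fold changes of 0.30 and -0.29 and a difference of 0.59 (SE 0.11, edgeR adjusted p = 0.039). The SW480 change on its own did not pass (edgeR adjusted p = 0.16). Without 1 library at a time the adjusted p for NEO1 ran from 2.7e-05 to 0.25, and it was 0.090 with limma on log2(TPM + 1).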

How the results depend on the processing

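With 2 libraries per group the counts of calls moved with the processing, and the cause was not tested. In HT29 cells (2279 genes, 1 gene of the set, 12 of the pathway list), DESeq2 called 871, 0 and 6, and the fit of all libraries together 185, 0 and 1. Both limma fits called 0 genes of the set and 7 of the list. Leaving out a library gave 0 to 1 genes of the set. In SW480 cells (466 genes, 7 of the list), all libraries together gave 2415 and 22, limma on log2(TPM + 1) 209 and 2, limma on log2(TPM + 0.1) 185 and 1, and the GC correction 2321 and 22. Leaving out a library gave 87 to 7364 genes, 0 to 1 of the set and 1 to 39 of the list. For the difference between lines (166 genes, 0 of the set), no count minimum gave 267 genes, DESeq2 311, limma 93 and 48, the GC correction 1008 and 1 of the set, the GC correction with the block 897, and leaving out a library 6 to 5237 and 0 to 2 of the set.

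The replicate numbers were checked as pairs: deviations of same-numbered libraries correlated at 0.10 in HT29 and 0.11 in SW480 cells across genes, and with 2 pairs per line they share only a number. With the replicate block the calls in HT29 cells were 2 genes of the set, ID1 and BAMBI. With the GC correction as well they were 3, with BMP4 added. BAMBI passed the count minimum there only through the PrxII siRNA libraries, so its p is not read in either fit. In SW480 cells the block gave 1727 genes and 13 of the list, and 3129 and 25 with the GC correction as well.

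Log2 values that changed sign were small. They were BMP4 in HT29 cells (0.0090 with both limma fits), BMP4 in SW480 cells (0.063 and 0.064), BAMBI in SW480 cells (0.0086 with both), the line difference of ID1 (0.014 with the GC correction, 0.017 with the block added) and that of SMAD7 (0.0067 with no count minimum, 0.00073 with the replicate block). Leaving out a library gave -0.053 to 0.10 for SMAD6 and -0.12 to 0.16 for BMP2 in HT29 cells, -0.068 to 0.58 for ID3 and -0.13 to 0.090 for BMP4 in SW480 cells, and for the line difference -4.89 to 0.11 for ID3, -0.080 to 0.084 for SMAD7 and -0.16 to 0.077 for BMP4. DESeq2 gave no adjusted p for BAMBI and BMP2 in HT29 cells, so its 0 calls of the set there rest on 4 genes. The median log2 difference between SW480 and HT29 control libraries over all genes, 0.04, was 0.15 and 0.16 with limma.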

Other observations

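The other genes of the pathway also differed between the lines in control libraries. All 6 of the BMP and GDF ligand genes tested, other than BMP2 and BMP4, were higher in SW480 than in HT29 cells by edgeR (median log2 difference 2.58), as were 5 of 6 TGF-beta and activin ligand genes (median 2.07). Over all genes tested 35.7% were higher and the median was 0.04. In each of these ligand lists, 4 genes reached the count minimum in the fit of HT29 cells and 6 in that of SW480 cells. Some thus entered this comparison only through the SW480 libraries where they were high, so these ligand counts and medians are partly set by the minimum. Of the 5 receptor SMAD and SMAD4 genes, 2 were higher and 3 lower (median -0.75). The members of these groups were listed with earlier results of the data known, and the lists were not tested.

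The abundance-weighted length that RSEM gave SMAD6 was 2071, 2083 and 2095 bases in 3 HT29 libraries and 2307 bases in HT29 PrxII siRNA library 2. In SW480 cells it was 1385 and 1422 bases in control and 1979 and 1929 bases in PrxII siRNA libraries, on 10 to 17 counts. Through this length the mean TPM of SMAD6 in SW480 cells went from 2.49 to 1.37, while its mean CPM went from 1.54 to 1.12. ID2, BMP2, ID3, ID4 and BAMBI have 1 listed transcript each, so their lengths were the same in all libraries.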
